A study of Homo sapiens with 6 samples.

Results

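PANC-1 is an established human cell line from a pancreatic carcinoma, and maslinic acid (MA) is a plant triterpenoid. The 9 genes described here were chosen by name, as the 7 classical CDK inhibitor genes CDKN1A, CDKN1B, CDKN1C, CDKN2A, CDKN2B, CDKN2C and CDKN2D, and MTAP and DMRTA1, which flank CDKN2A and CDKN2B on chromosome 9p21. They are 9 of the 58825 genes in the deposited table. RNA-seq covered 3 PANC-1 samples given 40 μM MA over 24 h, here named MA PANC-1 1 to 3, and 3 samples at 0 μM, named PANC-1 1 to 3. The study's methods call the samples of a group biological replicates. They give DMSO as the treatment of cells without MA, and the sources used here do not say whether the samples at 0 μM received it. The groups come from a single cell line at one dose and one time.

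CDK inhibitors are small proteins that bind cyclin-dependent kinases (CDKs) and restrain entry into the cell cycle. The CIP/KIP proteins p21 (CDKN1A), p27 (CDKN1B) and p57 (CDKN1C) bind complexes of CDKs with cyclins. The INK4 proteins p16 (CDKN2A), p15 (CDKN2B), p18 (CDKN2C) and p19 (CDKN2D) bind CDK4 and CDK6 and so keep RB active, and CDKN2A also encodes ARF, which holds back MDM2. Loss of CDKN2A is among the most frequent events of pancreatic carcinoma and often takes CDKN2B and MTAP with it. A deletion of this kind has been described for PANC-1. DNA was not measured in these samples.

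The authors deposited for every gene and sample an estimated count and an FPKM value, a level corrected for gene length and library depth. The counts of a library added up to 70275355, 65607669 and 59422939 without MA, in the order of the sample numbers. With MA they added up to 56978375, 63984133 and 58181114. MA PANC-1 2 stood apart on the first principal component, which held 26.4% of the variance. It lay at −73.6, against −29.5 and 16.2 for MA PANC-1 1 and 3 and between 18 and 44.9 for the PANC-1 samples. Genes whose unadjusted p-value went above 0.05 without this sample are named with that value where they are described. Genes averaging 0.1 FPKM or more, 17774 in number, were compared on their counts in edgeR with its quasi-likelihood test. A gene was called where its level at least doubled or halved with an unadjusted p-value below 0.05. These are the thresholds of the study, and only called genes are said to have risen or fallen. Changes are log2 fold changes of the counts with their standard errors (±), and p-values are given after Benjamini-Hochberg adjustment over all genes tested unless named as unadjusted. Of all genes tested, 1.92% met this rule, 1.25% on the lower side.

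The cells carried the markers of the labelled line in part. KRT8 was at 141 to 225 FPKM, KRT18 at 278 to 338 FPKM and VIM, a mesenchymal filament gene that PANC-1 is known to express, at 521 to 754 FPKM. KRT19 and EPCAM, which are common epithelial markers, had a mean under 0.1 FPKM and were not tested. None of the 9 normal pancreas markers, among them PRSS1 and INS, was above 0.00585 FPKM in a sample. The pan-leukocyte gene PTPRC reached at most 0.0120 FPKM. Of the 9 immune cell markers CD68, which many tumour lines express, was the only one tested, with a log2 fold change of 0.00, and it was the most abundant of them at 25.6 to 40.9 FPKM. The fibroblast gene DCN reached at most 0.0107 FPKM and the endothelial gene PECAM1 at most 0.0275 FPKM. COL3A1 was the most abundant fibroblast marker, at 13.7 to 19 FPKM in PANC-1 and 10.5 to 13.6 FPKM in MA PANC-1 samples (log2 fold change −0.33 ± 0.16, adjusted p = 0.471 in edgeR). ENG was the most abundant endothelial marker, at 0.175 to 0.404 FPKM. The 8 fibroblast markers summed to 17.9 to 25.6 FPKM in PANC-1 and 13.8 to 18.8 FPKM in MA PANC-1 samples, and the 5 endothelial markers to 0.428 to 0.584 and 0.248 to 0.328 FPKM. Of these 22 markers 6 passed the filter, and none of the 6 had an unadjusted p-value under 0.05. The myeloid gene LYZ, under the filter, had 6, 8 and 12 counts in PANC-1 1, 2 and 3 and 0 in each MA PANC-1 sample, and was called where genes from 1 count on were tested. COL1A2, a collagen gene, had 361, 0 and 0 counts in PANC-1 and 228, 351 and 0 in MA PANC-1 samples, and was called without PANC-1 1, which left the untreated samples at 0. The part of such cells in the results was not tested.

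RefSeq start sites were found for 8 of the 9 genes, all but CDKN1C, and 3 stretches of 170 bases are shown. They end 81 bases before a RefSeq start and are read on the strand of the gene. They are shown because CDKN1A was the most abundant of the genes and the one that was called, CDKN2D was the INK4 gene with the lowest p-value, and CDKN2B was almost without reads. Capitals mark GC boxes (GGGCGG), which SP1 and related factors are known to bind, and CCAAT boxes (CCAAT), each searched on both strands. TATA boxes (TATAAA) were searched too. The coordinates are those of GRCh38.p14.
CDKN1A, chr6:36678464-36678633, plus strand: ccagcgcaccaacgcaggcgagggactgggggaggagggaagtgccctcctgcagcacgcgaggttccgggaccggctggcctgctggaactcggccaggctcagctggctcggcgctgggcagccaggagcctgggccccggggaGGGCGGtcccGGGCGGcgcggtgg
CDKN2D, chr19:10569060-10569229, minus strand: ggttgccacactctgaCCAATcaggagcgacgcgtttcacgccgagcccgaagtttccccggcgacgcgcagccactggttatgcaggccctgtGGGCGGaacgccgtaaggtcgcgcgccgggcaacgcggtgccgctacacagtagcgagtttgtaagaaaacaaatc
CDKN2B, chr9:22009386-22009555, minus strand: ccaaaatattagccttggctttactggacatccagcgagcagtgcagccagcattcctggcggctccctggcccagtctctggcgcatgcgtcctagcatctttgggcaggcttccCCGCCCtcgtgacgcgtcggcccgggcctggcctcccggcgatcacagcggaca
The CDKN1A stretch held 2 GC boxes and a GC content of 76.5%, the CDKN2D stretch 1 GC box and 1 CCAAT box, and the CDKN2B stretch 1 GC box. Of the 35116 stretches of the same length in the RefSeq table, 29.5% held a GC box, 22.0% a CCAAT box and 6.86% a TATA box. None of the 3 stretches held a TATA box. The bases nearer the start, where TATA boxes usually lie, were not searched, so no lack of one in these promoters is read from this. A GC box thus stood both beside the most abundant gene and beside a gene with almost no reads. The CDKN1A stretch overlaps an exon of DINOL, a non-coding gene on the other strand.

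In untreated PANC-1 cells CDKN1A was by far the most abundant of the 9 genes. On the FPKM scale the levels ranked in the order CDKN1A, CDKN2C, CDKN1B, CDKN2D, CDKN1C, MTAP, DMRTA1, CDKN2A and CDKN2B. The mean of CDKN1A, 65.7 ± 6.92 FPKM (SD, n = 3), was 4.16 times that of CDKN2C at 15.8 FPKM and lay at percentile 96.9 of the genes tested. CDKN1B had a mean of 11.4 FPKM and CDKN2D of 9.06 FPKM, and the ranges of these 4 genes over the PANC-1 samples did not overlap. A gap of 8.03-fold separated CDKN2D from CDKN1C, at 1.13 FPKM. CDKN1C and its neighbour in the order, MTAP at 0.804 FPKM, overlapped in range, as did CDKN2A and CDKN2B at the bottom.

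**Figure D1:**
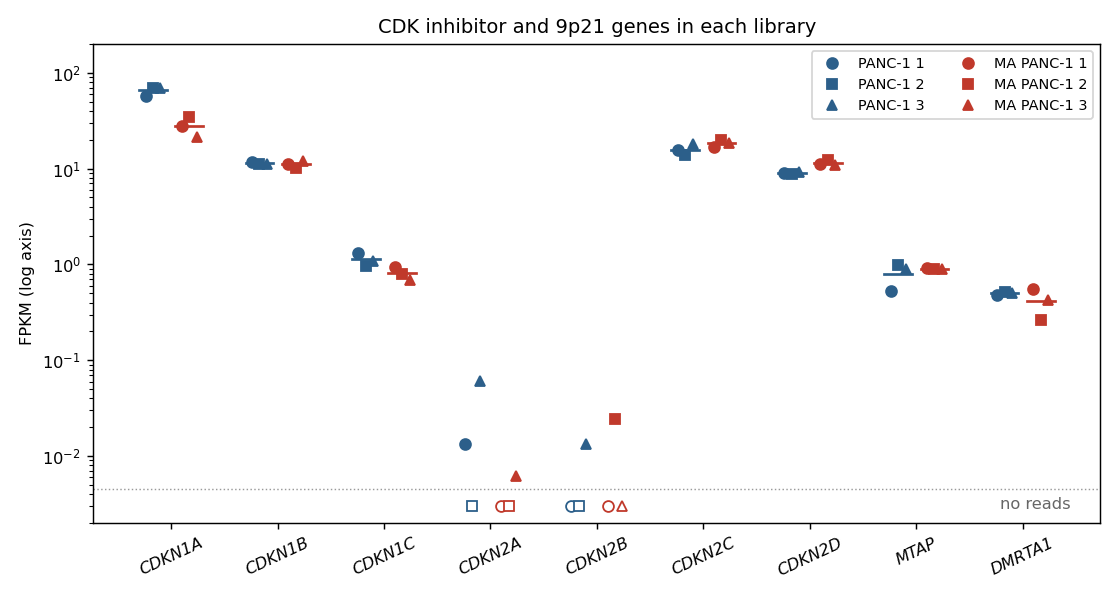
FPKM of the 9 genes in each library on a log axis, with blue symbols for PANC-1, red symbols for MA PANC-1 and bars for the group means of the 7 genes tested. Open symbols under the dotted line are libraries without reads for that gene. The 3 MA values of CDKN1A, 21.3 to 35 FPKM, lie under its 3 PANC-1 values, 57.7 to 70.1 FPKM.

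CDKN1A (ENSG00000124762, chromosome 6, 36676460 to 36687339, plus strand) fell after MA. It was at 57.7, 69.2 and 70.1 FPKM in PANC-1 1, 2 and 3 and at 27.8, 35 and 21.3 FPKM in the MA PANC-1 samples of the same order. All 3 treated samples were therefore below all untreated ones, and the highest of them was MA PANC-1 2, the sample that stood apart. The mean dropped to 28.0 ± 6.89 FPKM (SD, n = 3), 0.427 of the untreated mean. The estimated counts behind these levels were 14760, 16537 and 15139 in the PANC-1 samples and 5740, 8175 and 4511 in MA PANC-1 samples. In edgeR's quasi-likelihood test the log2 fold change was −1.18 ± 0.21 (adjusted p = 0.216). Its unadjusted p-value was 0.00068, by which the gene ranked 56th of 17774. An exact two-sided permutation test gave p = 0.1, the smallest that 3 samples against 3 allow. In bulk RNA, fewer cells that express a gene and less RNA per cell cannot be told apart.

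The fall of CDKN1A kept its direction and an unadjusted p-value under 0.05 in all 17 alternatives, with log2 fold changes from −1.42 without MA PANC-1 2 to −1.0 without MA PANC-1 3. Without MA PANC-1 3 the fold change just missed the 2-fold threshold, so the gene was not called there. The adjusted p-value was 2.29e-05 under DESeq2 and between 0.0828 and 0.597 under the other 16 alternatives. DESeq2 put 263 genes under an adjusted p of 0.05, 1.48% of those tested, and edgeR 7 genes, 0.0394%. DINOL, which overlaps CDKN1A on the other strand, had 27 estimated counts over all 6 libraries.

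Of the 9 genes 7 passed the filter on low values, and CDKN1A was the 1 gene among them that was called. An unadjusted p-value under 0.05 was found for CDKN1A on the lower side, where 5.86% of all genes tested had one, and for CDKN2D on the higher side, where 5.37% had one. No overlap between the groups was seen for CDKN1A, CDKN1C and CDKN2D, 3 of 7 genes, against 19.9% of all genes tested. The median log2 fold change was −0.02 over the 7 genes and 0.00 over all genes tested.

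**Figure D2:**
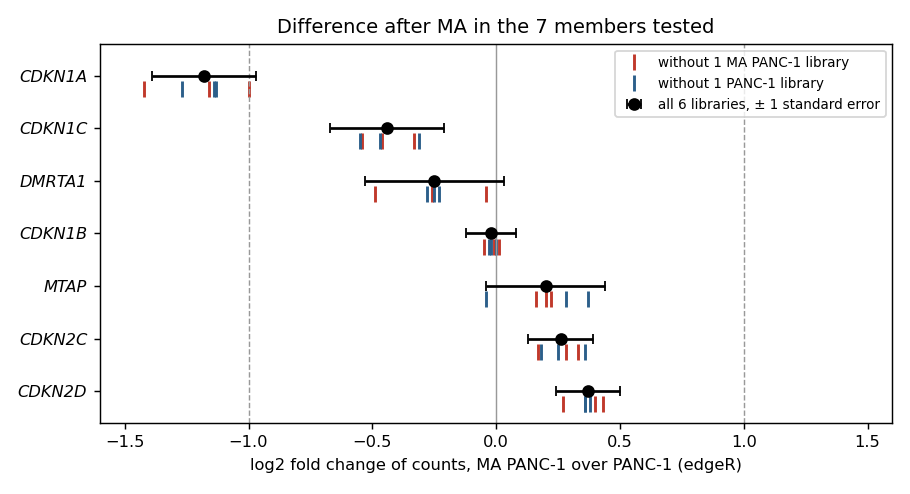
Log2 fold change of the counts between MA PANC-1 and PANC-1 samples for the 7 genes tested by edgeR. Black points are the estimates from all 6 libraries with 1 standard error, short ticks the values with 1 library left out, and dashed lines a 2-fold change. The CDKN1A estimate of −1.18 lies beyond the dashed line on the left, and the other 6 genes lie between −0.44 and 0.37.

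The other CIP/KIP genes did not meet the rule. CDKN1B (ENSG00000111276, chromosome 12, 12715058 to 12722369, plus strand) was at 11.7, 11.3 and 11.2 FPKM in the PANC-1 samples and at 11.2, 10.1 and 11.9 FPKM in the MA PANC-1 samples. These values overlapped, and the log2 fold change of −0.02 ± 0.10 (adjusted p = 0.96 in edgeR) was the closest to 0 among the 7 genes. CDKN1C (ENSG00000129757, chromosome 11, 2883213 to 2885771, minus strand) was at 1.33, 0.962 and 1.09 FPKM without MA and at 0.933, 0.786 and 0.695 FPKM with it. The groups did not overlap, though PANC-1 2 and MA PANC-1 1 were close, and the log2 fold change was −0.44 ± 0.23 (adjusted p = 0.501 in edgeR). For CDKN1B the lowest and the highest treated value lay on either side of all untreated values, whereas CDKN1C was low in all samples of both groups.

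The INK4 genes that were expressed had higher means after MA without meeting the rule. CDKN2D (p19; ENSG00000129355, chromosome 19, 10566462 to 10569059, minus strand) was at 9.0, 8.89 and 9.30 FPKM without MA and at 11.2, 12.2 and 10.8 FPKM with it. Each treated sample was above each untreated one, by a log2 fold change of 0.37 ± 0.13 (adjusted p = 0.429 in edgeR). Its unadjusted p-value was 0.0255, and without PANC-1 1, 2 or 3 it was 0.0781, 0.0714 and 0.0558, with the same direction. CDKN2C (p18; ENSG00000123080, chromosome 1, 50960745 to 50974633, plus strand) was at 15.6, 13.8 and 17.9 FPKM without MA and at 17, 19.8 and 18.5 FPKM with it. The untreated sample PANC-1 3 exceeded the lowest treated one, and the log2 fold change was 0.26 ± 0.13 (adjusted p = 0.491 in edgeR), or 0.36 without PANC-1 3, where the unadjusted p-value was 0.0462.

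With these levels the make-up of the CDK inhibitor transcripts differed between the groups. CDKN1A held 60.5%, 66.4% and 63.9% of the summed FPKM of the 7 inhibitor genes in PANC-1 1, 2 and 3. In MA PANC-1 1, 2 and 3 it held 40.8%, 45.0% and 33.7%. The share of CDKN2C went from 15.3% ± 1.76 (SD, n = 3) to 26.6% ± 2.38 (SD, n = 3), and that of CDKN2D from 8.81% ± 0.538 to 16.4% ± 0.751 (SD, n = 3). Without CDKN1A the other genes summed to 37.4 ± 2.31 FPKM in PANC-1 and 41.7 ± 1.31 FPKM in MA PANC-1 samples (SD, n = 3). The ratio of CDKN1A to CDKN1B was 5.75 ± 0.725 in PANC-1 and 2.59 ± 0.849 in MA PANC-1 samples (SD, n = 3).

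**Figure D3:**
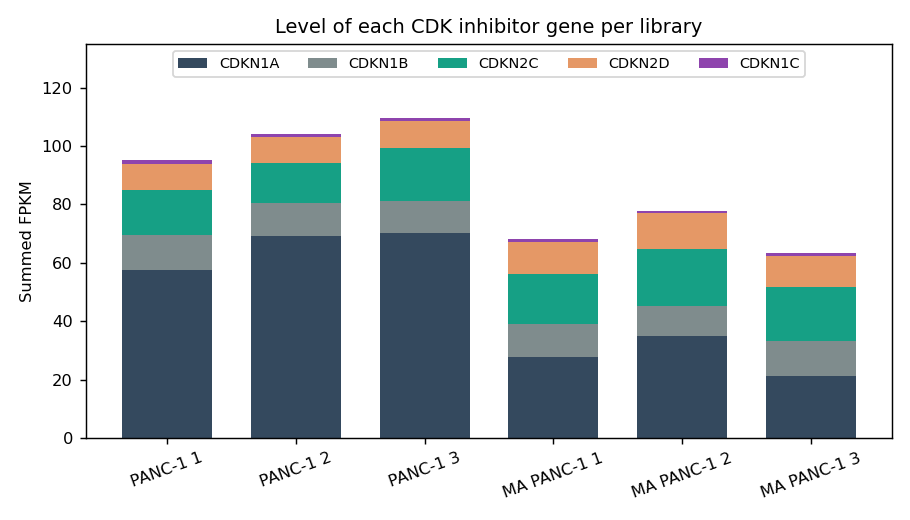
Stacked bars of the FPKM of the 5 CDK inhibitor genes tested, one bar per library, starting at 0. CDKN1A, the lowest segment, makes up 57.7 to 70.1 FPKM of the PANC-1 bars and 21.3 to 35 FPKM of the MA PANC-1 bars, and the segments above it sum to 35 to 42.9 FPKM.

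At 9p21 CDKN2A and CDKN2B were almost without reads in both groups. CDKN2A (ENSG00000147889, chromosome 9, 21967753 to 21994873, minus strand) had 5, 0 and 19 estimated counts in PANC-1 1, 2 and 3 and 0, 0 and 2 in MA PANC-1 1, 2 and 3. CDKN2B (ENSG00000147883, chromosome 9, 22002903 to 22009305, minus strand) had 0, 0 and 4 counts without MA and 0, 8 and 0 with it. Neither gene passed the filter, and neither was tested. For a library at 0 counts the limit of 3 counts corresponds to between 0.00857 and 0.00987 FPKM for CDKN2A, and to between 0.0084 and 0.0104 FPKM for CDKN2B. Such limits cover counting error only. With so few counts the groups were not compared for these genes, and the form of the CDKN2A transcript, p16 or ARF, cannot be read from a count per gene.

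MTAP, which encodes the phosphorylase of the methionine salvage pathway, and DMRTA1, a gene of the DMRT family, were detected in every library at levels around or below 1 FPKM. MTAP (ENSG00000099810, chromosome 9, 21802543 to 21932739, plus strand) was at 0.522, 0.985 and 0.905 FPKM in PANC-1 and at 0.915, 0.892 and 0.889 FPKM in MA PANC-1 samples. PANC-1 1 was the low sample, and the log2 fold change of 0.20 ± 0.24 (adjusted p = 0.773 in edgeR) was −0.04 without it. The 3 treated values differed by little, with a coefficient of variation of 1.6%. The estimated counts of MTAP were 642, 1131 and 938 in PANC-1 and 908, 998 and 904 in MA PANC-1 samples. They lay above those of CDKN1C, 122 to 280 per library, although its FPKM values, corrected for length, were similar. DMRTA1 (ENSG00000176399, chromosome 9, 22446824 to 22455740, plus strand) was at 0.484, 0.516 and 0.506 FPKM without MA and at 0.552, 0.265 and 0.429 FPKM with it. MA PANC-1 2 was the low sample here, the groups overlapped, and the log2 fold change was −0.25 ± 0.28 (adjusted p = 0.741 in edgeR), or −0.04 without that sample.

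The stretch with few reads lay between MTAP and DMRTA1. Their rows are 514085 bases apart and hold 9 genes between them, of which 3 had a count, with 42 counts in all 6 libraries together. The third of these, beside CDKN2A and CDKN2B, was CDKN2B-AS1 (ANRIL), an antisense RNA known for its part in silencing the locus, with 4 counts in MA PANC-1 2 and 0 elsewhere. CDKN2A-DT had 0 counts in every library. Within 3 Mb on either side of CDKN2A 23 of 104 genes, 22.1%, had a mean of at least 0.1 FPKM, against 31.4% on all of chromosome 9 and 30.2% in the whole table. The most abundant of them was RPS6, a ribosomal protein gene, with a mean of 321 FPKM in PANC-1 and 312 FPKM in MA PANC-1 samples. The nearest genes above this level on the side of MTAP were the pseudogenes RN7SL151P and KHSRPP1 and the non-coding MIR31HG, and on the side of DMRTA1 the non-coding LINC01239.

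Of the 23 genes of the window tested, 16 had a log2 fold change below 0, with a median of −0.22. Of all 17774 genes tested, 8929 lay below 0. In the window 1 gene was called, against 1.92% of all genes tested. This was AL161909, an RNA gene at 60, 71 and 43 counts in PANC-1 and 25, 14 and 30 counts in MA PANC-1 samples, with a log2 fold change of −1.16 ± 0.44 (adjusted p = 0.432 in edgeR). It lies near the far end of the window, on the side of MTAP. Its unadjusted p-value was under 0.05 in 11 of 16 alternatives, and above it, among others, without MA PANC-1 1 or 2 and without PANC-1 1 or 2, with log2 fold changes of −1.24, −0.89, −1.19 and −0.99 and unadjusted p-values of 0.0544, 0.0639, 0.0672 and 0.107. Without overlap between the groups were 3 of the 23 genes, where 19.9% of all genes tested had none. They were AL161909 and, under the 2-fold threshold, MLLT3 (−0.40 ± 0.19), which encodes a transcription elongation factor subunit, and KLHL9 (−0.29 ± 0.12). FOCAD, PLIN2 and RPS6 had log2 fold changes of −0.07, 0.01 and −0.01. Apart from AL161909 the genes tested in the window ran from −0.90 ± 1.45 for AC017067 to 0.53 ± 1.23 for IFNA20P, both at few counts. Not all of them are named here.

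**Figure D4:**
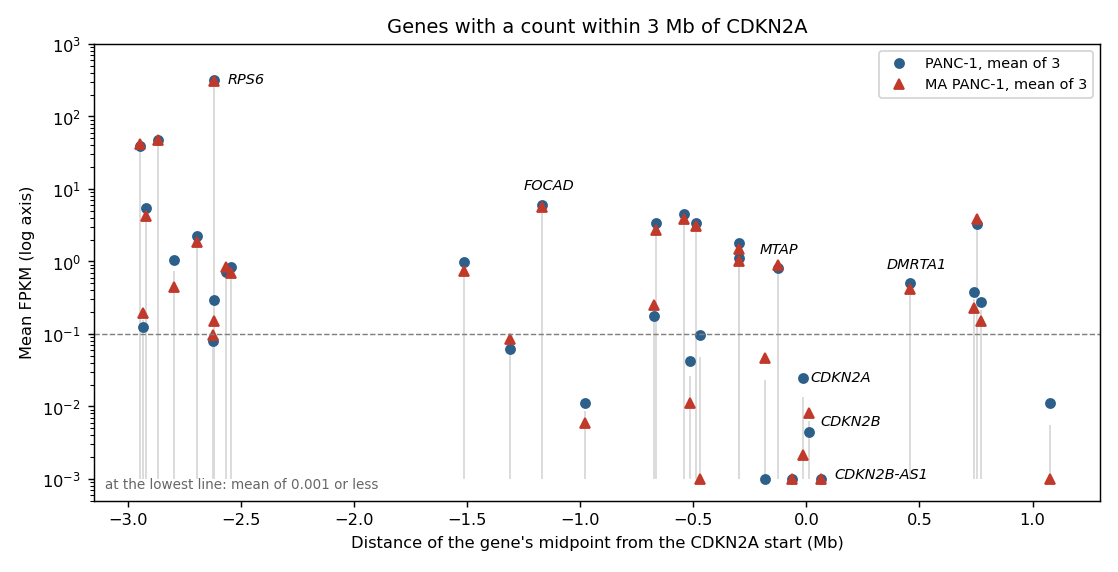
Mean FPKM on a log axis of the 34 genes with a count within 3 Mb of CDKN2A, against the distance of the gene's midpoint from the CDKN2A start in Mb. Blue circles are PANC-1 and red triangles MA PANC-1 means of 3 libraries, and the dashed line marks 0.1 FPKM. No gene between MTAP and DMRTA1 reaches the dashed line.

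For the genes around the CDK inhibitors, higher and lower stand for an unadjusted p-value under 0.05. Of all genes tested in edgeR, 5.37% were higher and 5.86% lower in this sense, and 1.92% were called. Of a list of CDKs, cyclins and MNAT1, 15 genes were tested and none was called, with 1 higher and 1 lower. The median log2 fold change was −0.01. The list also holds CDK7 and CCNH, and not all of its genes encode partners of these inhibitors. CDK6, the kinase held by INK4 proteins, was at 2.55, 2.69 and 3.0 FPKM in PANC-1 and 1.84, 1.53 and 2.10 FPKM in MA PANC-1 samples (log2 fold change −0.56 ± 0.13, adjusted p = 0.375 in edgeR). CCND2, a D-type cyclin, was higher by 0.58 ± 0.15 (adjusted p = 0.388 in edgeR). For both, each treated sample lay outside the untreated range, and DESeq2 gave adjusted p-values of 0.0281 for CDK6 and 0.0382 for CCND2. CDK4 had a log2 fold change of −0.01, CDK2 of 0.05, CCND1 of −0.06, CCNE1 of 0.15 and CCNH of −0.34, with unadjusted p-values from 0.0833 to 0.948.

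Among 17 genes of RB and E2F 1 was higher and 1 lower. RB1, which restrains E2F factors, was at 6.89, 5.86 and 7.24 FPKM in PANC-1 and 4.72, 3.15 and 5.32 FPKM in MA PANC-1 samples, with a log2 fold change of −0.57 ± 0.18 (adjusted p = 0.408 in edgeR), or −0.41 without MA PANC-1 2. E2F1 was at 37.8, 35.5 and 35.9 FPKM without MA and 43.9, 47.9 and 38.8 FPKM with it, a log2 fold change of 0.30 ± 0.12 (adjusted p = 0.435 in edgeR), or 0.18 without MA PANC-1 2, where the unadjusted p-value was 0.0693. MA PANC-1 2 was thus the lowest sample for RB1 and the highest for E2F1, and neither gene was called. E2F1 held an unadjusted p-value under 0.05 in 11 of 16 alternatives. RBL1, a relative of RB1, had a log2 fold change of −0.34 ± 0.16 (adjusted p = 0.467 in edgeR).

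MDM2, the ubiquitin ligase that ARF holds back, had a log2 fold change of −0.20 ± 0.20 (adjusted p = 0.72 in edgeR). MDM2 was at 5.04, 4.18 and 5.93 FPKM in PANC-1 and 4.76, 3.01 and 5.21 FPKM in MA PANC-1 samples, lowest in MA PANC-1 2. Its relative MDM4 was lower by 0.44 ± 0.15 on the log2 scale (adjusted p = 0.429 in edgeR), at 1.46, 1.6 and 1.7 FPKM without MA and 1.10, 0.953 and 1.37 FPKM with it. PANDAR, an RNA gene upstream of CDKN1A, was at 0.0114 to 0.108 FPKM in PANC-1 and 0.119 to 0.207 FPKM in MA PANC-1 samples. It passed the filter only through its MA PANC-1 mean of 0.171 FPKM, against 0.064 FPKM in PANC-1 samples, so no change is read from it.

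Of 20 transcription regulators of CDKN1A tested, 2 were higher and 5 lower, and none was called. The lower ones were KLF4 (−0.61 ± 0.22), which is known to activate CDKN1A in the gut and stood at −0.39 without MA PANC-1 3, RUNX1 (−0.40 ± 0.11), SP3 (−0.39 ± 0.15), the deacetylase gene HDAC2 (−0.29 ± 0.10) and SP1 (−0.23 ± 0.09), the last with an unadjusted p-value under 0.05 in 7 of 16 alternatives. SP1 and SP3 encode factors that bind GC boxes such as those shown for CDKN1A. Binding was not measured, and a link between these genes and the level of CDKN1A was not tested. STAT3 (0.26 ± 0.09) and HDAC1 (0.25 ± 0.09) were higher, each with an unadjusted p-value under 0.05 in 12 of 16 alternatives. The median of the list was 0.06. SP3 was at 2.52, 2.53 and 3.41 FPKM in PANC-1 and 2.28, 1.84 and 2.21 FPKM in MA PANC-1 samples, and leaving out MA PANC-1 2 gave −0.33, where the unadjusted p-value was 0.0778. Without PANC-1 3 SP3 was at −0.23, with an unadjusted p-value of 0.117. For KLF4 the unadjusted p-value was 0.0662 without PANC-1 2 and 0.0627 without PANC-1 3.

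For the turnover of p21 and p27, a list of 18 genes was tested, with 3 higher, 0 lower and none called. It also holds the transcription factor genes FOXO1, FOXO3 and FOXO4. The higher ones were FZR1, an activator of the anaphase-promoting complex (0.50 ± 0.14), CKS1B, the cofactor with which SKP2 recognises p27 (0.38 ± 0.14), and the proteasome activator gene PSME3 (0.27 ± 0.11). SKP2 had a log2 fold change of 0.04 ± 0.14 (adjusted p = 0.928 in edgeR). CKS1B was at 53.3, 41.2 and 58.1 FPKM in PANC-1 and 62.9, 67.4 and 62.5 FPKM in MA PANC-1 samples. Without MA PANC-1 2 the log2 fold change of CKS1B was 0.30 and that of PSME3 0.20, with unadjusted p-values of 0.0847 and 0.102, and PSME3 was under 0.05 in 6 of 16 alternatives. Without PANC-1 2 the value of CKS1B was 0.25, where the unadjusted p-value was 0.0839. Protein levels were not analysed here.

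Polycomb proteins are known to silence CDKN2A and CDKN2B, and of 18 genes tested none was called. BMI1, the classical repressor of CDKN2A, was at 18.0, 15.3 and 18.2 FPKM in PANC-1 and 6.78, 12.2 and 8.53 FPKM in MA PANC-1 samples. All treated samples were lower, and the log2 fold change was −0.86 ± 0.23 (adjusted p = 0.388 in edgeR), just short of a 2-fold change, and −1.17 without MA PANC-1 2, where the gene was called. DESeq2 gave BMI1 an adjusted p of 0.0255. With COMMD3-BMI1, a read-through gene on the same strand, added to it the value was −0.87. CBX6 (0.33 ± 0.10) was higher, and EZH2 had mean levels of 11.1 FPKM in PANC-1 and 11.2 FPKM in MA PANC-1 samples. CDKN2A and CDKN2B had too few counts for the groups to be compared, so a link between them and these values was not tested.

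Around MTAP a list of 18 genes, MTAP included, was tested, with 3 higher, 0 lower and none called. It joins genes of methionine salvage with genes of S-adenosylmethionine, of polyamine synthesis and of PRMT5 and its partners. ADI1, which acts later in the salvage pathway (0.35 ± 0.08), ODC1, the first enzyme of polyamine synthesis (0.26 ± 0.08), and GOT1 (0.35 ± 0.12) were higher, though leaving out MA PANC-1 2 gave 0.32 for GOT1, where the unadjusted p-value was 0.0581. PRMT5, whose activity is known to depend on MTAP through its substrate, had a log2 fold change of 0.16 ± 0.11 (adjusted p = 0.569 in edgeR), and MAT2A, which makes S-adenosylmethionine, of −0.09 ± 0.09 (adjusted p = 0.703). The largest value, −2.24 for IL4I1, had an adjusted p = 0.511 in edgeR at low counts, which were 80, 49 and 67 in PANC-1 1, 2 and 3 and 34, 2 and 0 in the MA PANC-1 samples. IL4I1 passed the filter only through its PANC-1 mean of 0.332 FPKM, against 0.069 FPKM in MA PANC-1 samples, so no change is read from its value. MA PANC-1 1 stood apart from the other treated samples, and the value was −5.73 without it, where the gene was called, as it was in limma on log2(FPKM + 0.1), at −1.53. NUP62, on the same strand, overlaps IL4I1 and is far more abundant, and with overlapping genes summed the value was 0.24. It was named after its value was seen.

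Proliferation genes, which p21 is known to restrain, differed in direction. Of 30 tested, 3 were higher and 3 lower, none was called, and the median was 0.10. RRM2, a subunit of ribonucleotide reductase, was at 27.3 to 28.1 FPKM in PANC-1 and at 52.4, 50.7 and 27.7 FPKM in MA PANC-1 samples (log2 fold change 0.70 ± 0.24, adjusted p = 0.429 in edgeR), or 0.54 without MA PANC-1 2, where the unadjusted p-value was 0.0814. FOXM1, a transcription factor of late cell cycle genes, was at 15.6 to 17.2 FPKM without MA and at 46.4, 26.2 and 14.9 FPKM with it (0.88 ± 0.36). In both genes MA PANC-1 3 lay at the untreated level, and for FOXM1 the value was 0.41 without MA PANC-1 1 and 0.92 without MA PANC-1 2, where the unadjusted p-value was 0.0819. CENPF, a centromere protein gene, was lower, at 5.41, 2.01 and 7.33 FPKM against 8.89 to 11.2 FPKM in PANC-1 samples (−0.99 ± 0.39), or −0.63 without MA PANC-1 2. It stood at the edge of the 2-fold threshold, and in limma on log2(FPKM + 0.1) (−1.16) and without MA PANC-1 3 (−1.37) it was called. CENPF was also called with the replicate number as a block (−1.14). CDC6 (0.31 ± 0.11) was higher, and BUB1B (−0.37 ± 0.15) and MCM4 (−0.19 ± 0.08) were lower. An unadjusted p-value under 0.05 was held by MCM4 in 6 of 16 alternatives, by FOXM1 in 7 and by CENPF and CDC6 in 12 each. FOXM1 was called without MA PANC-1 3 (1.21). Leaving out MA PANC-1 2 gave −0.31 for BUB1B, where the unadjusted p-value was 0.113, and leaving out PANC-1 1 gave −0.21, where it was 0.163.

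Secreted factors that accompany senescence, a state in which CDK inhibitors are known to be high, were listed together with LMNB1, a nuclear lamina gene known to be low in senescence. Of this list 13 genes were tested, with 0 higher and 3 lower and none called. The 3 were the chemokine genes CXCL1 (−0.99 ± 0.28), CXCL2 (−0.71 ± 0.27) and CCL2 (−0.68 ± 0.19). CXCL1 was at 3.40, 3.38 and 2.54 FPKM in PANC-1 and 1.34, 1.14 and 2.12 FPKM in MA PANC-1 samples. It was just short of a 2-fold change and was called in limma on log2(FPKM + 0.1) (−1.01), among genes averaging 1 FPKM or more (−1.01), and without PANC-1 3 (−1.12) or MA PANC-1 3 (−1.26). CXCL1 was also called with the replicate number as a block (−1.02). CXCL2 was at −0.65 without MA PANC-1 2, where the unadjusted p-value was 0.0851, and was under 0.05 in 11 of 16 alternatives. IL6, IL1A and IL1B were under the filter. The median of the 13 genes was −0.09.

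On 11p15, where CDKN1C lies in an imprinted cluster, 9 neighbours were tested, with 3 higher and 2 lower. Besides CDKN1A, 1 of 209 list genes was called, or 0.478%, against 1.92% of all genes tested. This was H19, an imprinted non-coding RNA. It was at 3.31, 4.45 and 8.12 FPKM in PANC-1 and fell to 2.93, 2.47 and 1.59 FPKM in MA PANC-1 samples (log2 fold change −1.13 ± 0.38, adjusted p = 0.419 in edgeR). The groups did not overlap, but PANC-1 3 was far above the other untreated samples. The value was −0.69 without PANC-1 3 and −0.91 without MA PANC-1 3, and the gene was not called in either case, nor in limma on log2(FPKM + 1), at −0.87. With the replicate number as a block in edgeR H19 was not called either, at −1.07 with an unadjusted p-value of 0.0578. IGF2, the growth factor gene beside it, was at 35.1, 34.1 and 36.3 FPKM without MA and at 24.0, 23.4 and 22.3 FPKM with it, and had the lowest p-value among the list genes (−0.56 ± 0.08, adjusted p = 0.158 in edgeR). The replicates of IGF2 lay close together in both groups, and DESeq2 gave it an adjusted p of 0.000367. CD81 (0.40 ± 0.11), SLC22A18 (0.48 ± 0.17) and CARS (0.20 ± 0.08) were higher, though CARS held an unadjusted p-value under 0.05 in 1 of 16 alternatives (0.0597 without MA PANC-1 2), and SLC22A18 stood at 0.28 without that sample.

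Over the 18 lists no gene kept an adjusted p-value under 0.05 in edgeR, and 42 of 209 genes, 20.1%, had an unadjusted one under 0.05, against 11.2% of all genes tested. DESeq2 put 4 list genes, CDK6, CCND2, BMI1 and IGF2, under an adjusted p of 0.05. These were 1.91% of the list genes, against 1.48% of all genes tested. Of 13 housekeeping genes 2 were higher, PGK1 (0.27 ± 0.10) and GUSB (0.34 ± 0.14), and the median of the list was 0.09. Without MA PANC-1 2 the unadjusted p-values were 0.0613 for PGK1 and 0.0817 for GUSB, which then stood at 0.19. The 7 epithelial and carcinoma markers tested had a median of −0.19. Of the 4 other genes with CDKN in their name or beside these genes, CDKN3 had a log2 fold change of −0.16 and CDKN2AIP of 0.51, with unadjusted p-values of 0.208 and 0.409. For CDKN2AIP the sample PANC-1 3 stood apart. Its levels were 2.16, 1.81 and 0.34 FPKM in PANC-1 and 1.76, 1.68 and 2.59 FPKM in MA PANC-1 samples.

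**Figure D5:**
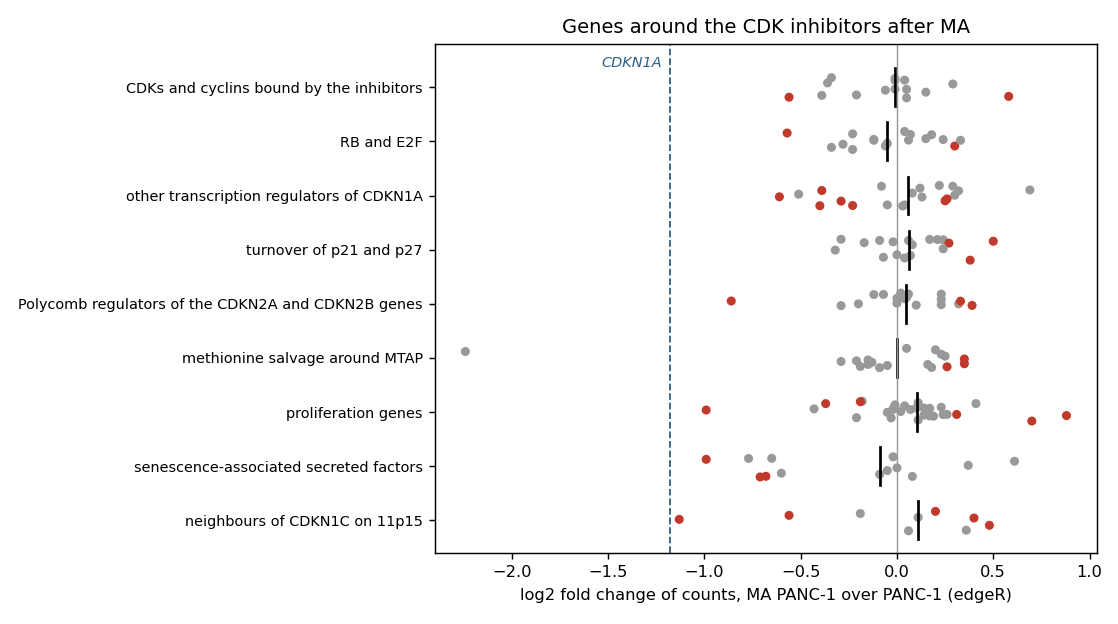
Log2 fold changes between MA PANC-1 and PANC-1 samples of the genes tested in 9 lists around the CDK inhibitors. Each point is a gene, red where the unadjusted edgeR p-value is under 0.05, the black bar is the median of the list, and the dashed line marks CDKN1A at −1.18. Only IL4I1 at −2.24 lies to the left of CDKN1A, with H19 at −1.13 next to the line.

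As a description, the genes whose FPKM followed CDKN1A most closely over the 6 samples were sought among 6442 genes with a mean of at least 5 FPKM, by Pearson's r of log2(FPKM + 0.1). The 5 highest were ALDH1B1 (r = 0.9928), ANPEP (0.9889), RANBP1 (0.9875), MT-TD (0.9863) and TINAGL1 (0.9850), and 17 genes reached 0.95. All points share the same 6 libraries and the same groups. ANPEP, a membrane aminopeptidase, was at 155, 157 and 166 FPKM in PANC-1 and 85, 99.1 and 78.0 FPKM in MA PANC-1 samples, with a log2 fold change of −0.82. ALDH1B1 had the highest r with levels from 16.7 to 17.6 FPKM, a log2 fold change of −0.02. The log2 fold changes of the 5 genes thus ran from −1.0 for MT-TD to −0.02.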

How the data were processed

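RNA-seq libraries of 6 PANC-1 samples, made from poly(A) RNA with dUTP in the second strand per the labels, were grouped as 3 MA and 3 untreated. Per gene and sample, the deposited table holds an FPKM value, normalized by the authors for length and depth with 0.0001 listed for no reads, and an estimated count that the authors did not normalize. The submitters' processing notes name cutadapt 1.9, HISAT2 2.0.4, StringTie 1.3.4d, edgeR and DESeq2, without stating the role or order of each. A genome build is not given in the sources used here. Of 58825 rows 58552 identifiers are in GENCODE 29 and 47519 have identical positions there, which are GRCh38 coordinates. The deposited table was used as 1 row per Ensembl identifier. Whether the counting used strand is not given in the sources used here, so reads of a gene and of its antisense partner may be mixed.

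Counts of the 17774 genes averaging 0.1 FPKM or more were tested with edgeR 4.0.16 (R 4.3.3, TMM normalization, quasi-likelihood), with the study's thresholds (fold change 2 or 0.5, unadjusted p-value 0.05) and Benjamini-Hochberg adjustment over all genes. The standard error is the log2 fold change divided by the square root of F. Alternatives were DESeq2 1.42.0, limma 3.58.1 on log2(FPKM + 0.1, 1 or 0.01), other filters and size factors, halved counts, overlapping genes summed, a replicate block and leaving out each library. In simulated data 200 of 17774 genes were changed by a log2 fold change of 2, which is larger than that of CDKN1A. An adjusted p-value under 0.05 was reached by 184 of the changed genes in edgeR (188 genes in all). It was reached by 195 in DESeq2 (245 in all) and 175 in limma (184 in all). The rule on fold change and unadjusted p-value was not simulated.

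The members and lists were chosen with earlier results of these data known. Named were the 9 members and some, not all, of the genes of the 9p21 window averaging 0.1 FPKM or more. From each list the called genes were named, or else the 3 with the smallest p-values. CDK4, CDK6, CDK2, CCND1, CCNE1, RB1, E2F1, MDM2, SKP2, PRMT5 and MAT2A were named too, as were the 5 genes most like CDKN1A. Further genes with a p-value under 0.05, and genes named as not detected, were added after their values were seen. Among the listed names that matched no name in the table were MIZ1, E2A, CDKN1A-DT and CARS1. ZBTB17 and TCF3, in the same list as MIZ1 and E2A, were tested. Some other items of the rule and lists are not reported here. Promoter sequences are from RefSeq, GRCh38.p14.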

Additional observations from a re-analysis of the deposited data

How the results depend on the processing

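Each group held 3 samples, edgeR estimated a biological coefficient of variation of 0.307, and CDKN2A and CDKN2B had few counts. The fall of CDKN1A had an unadjusted p-value under 0.05 in all 17 alternatives. Of the 9 genes 1 was called in all alternatives except without MA PANC-1 3, and 0 to 1 were called with 1 library left out. The number with an unadjusted p-value under 0.05 was 2, and 1 to 2 with 1 library left out. CDKN2D ranged from 0.27 to 0.43 on the log2 scale with 1 library left out. CDKN1B was at −0.02, and between −0.05 and 0.01 (the latter without MA PANC-1 2) with 1 library left out, and MTAP at 0.20, and between −0.04 (without PANC-1 1) and 0.37. The cause of these differences was not tested. In all genes 342 were called, 44 by limma with a pseudocount of 1, 93 among genes averaging 1 FPKM or more, and 569 with no filter beyond 1 count, and 326 to 534 with 1 library left out. Under an adjusted p of 0.05 stood 7 genes, 263 with DESeq2, 12 among genes averaging 1 FPKM or more, 11 with overlapping genes summed, and 3 to 24 with 1 library left out. Of the 9p21 window 12 genes had at least 1 FPKM, and 11 of the 23 lay within 1 Mb. Of 38 other named genes, 11 kept direction and an unadjusted p-value under 0.05 in every alternative run for them, and 1 reversed, IL4I1, at 0.24 with overlapping genes summed. List genes called numbered 1, 4 by limma with a pseudocount of 0.1, none with one of 1, and 1 to 4 with 1 library left out. With the replicate number as a replicate block, CDKN1A had a log2 fold change of −1.21 and 0 genes kept an adjusted p under 0.05, in edgeR, against 327 called by the rule. Under this block 3 list genes were called, CENPF (−1.14), CXCL1 (−1.02) and IL4I1 (−3.51). H19 (−1.07) had an unadjusted p-value of 0.0578 there and CXCL2 one of 0.0729, and 8 of 36 named list genes had one above 0.05. Deviations of same-numbered samples correlated at 0.0294, 0.0502 and 0.0724, although 3 of 3 pairs correlated best with their own number, so the numbers were not taken to pair the samples.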
